A study of Caenorhabditis briggsae with 9 samples.

Results

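The mitochondrial ribosomal protein genes of the nematode Caenorhabditis briggsae were followed in whole L3 larvae of 3 strains. The members were all genes of the count table whose symbol begins Cbr-mrpl- (large subunit) or Cbr-mrps- (small subunit) and which had 10 or more counts in at least 3 libraries. These were 62 genes, 35 of the large and 27 of the small subunit, among 22922 genes in the table. Every gene with such a symbol met the count rule, and all 62 were among the 12507 genes tested. RNA sequencing of 9 libraries compared the wild-type isolate AF16 with a strain that carries allele gu163 of Cbr-spr-4, also called Cbr-ivp-1, and a strain that carries allele gu167 of Cbr-htz-1, also called Cbr-ivp-2. In C. elegans, SPR-4 is a zinc finger repressor of transcription and HTZ-1 is the histone variant H2A.Z. Each strain gave 3 libraries, described in the labels as independent biological replicates. Larvae of all strains were grown on plates at 20 degrees and collected shortly before the vulval precursor cells divide. What the alleles do to each gene, and whether the strains were outcrossed, was not given in the sources used here.

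Mitochondria carry their own ribosome, which translates the few proteins encoded in mitochondrial DNA, nearly all of them core subunits of the respiratory chain. Its protein subunits are encoded in the nucleus, made in the cytosol and imported, so that the ribosome is put together from mitochondrial RNA and nuclear-encoded protein. The small subunit reads the messenger RNA at the decoding centre, and the large subunit forms the peptide bond and releases the chain through an exit tunnel at the inner membrane. Many of the proteins have a counterpart in the bacterial ribosome, and others occur only in mitochondria. In C. elegans, lowering mrps-5 or other mitochondrial ribosomal proteins lengthens life and switches on the mitochondrial stress response. The mitochondrially encoded targets of this ribosome were not analysed here.

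Total counts per library ranged from 8294524 to 14095189, and a member had between 21 and 2293 counts in a library. Levels are given as CPM, read counts scaled to the TMM-adjusted library total. The scaling factors ran from 0.746 in AF16 replicate 3 to 1.20 in gu167 replicate 3. CPM is not corrected for gene length, so levels are compared between strains and not between genes. Cbr-spr-4 was higher in gu163 than in AF16, with 251, 207 and 249 CPM against 88.0, 118 and 120.0 CPM. In gu167 it lay at 152, 156 and 144 CPM, also above every AF16 library, though it did not pass the edgeR test (adjusted p = 0.201). Cbr-htz-1 lay at 61.0, 62.8 and 57.5 CPM in gu167 and 60.6, 59.9 and 78.7 CPM in AF16. With the kind of lesion not given, these levels do not check the labels. Libraries sample whole larvae, so fewer cells of a type and less RNA per cell cannot be told apart.

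Transcripts of the mitochondrial ribosome were lower in gu163 than in AF16 in both subunits, and overlapped AF16 in gu167. The summed level of the 35 large subunit genes was 2291, 2079 and 1946 CPM in the AF16 libraries, 1382, 1344 and 1403 in those of gu163, and 2426, 2059 and 1968 in those of gu167. The summed level of the 27 small subunit genes was 1964, 1831 and 1734 CPM in the AF16 libraries, 1215, 1207 and 1238 in those of gu163, and 2107, 1801 and 1737 in those of gu167. In both subunits every gu163 library lay below every library of the other strains, and AF16 and gu167 overlapped. The sums averaged 2106 ± 174, 1376 ± 29.7 and 2151 ± 242 CPM for the large subunit and 1843 ± 116, 1220 ± 16.2 and 1881 ± 198 CPM for the small subunit in AF16, gu163 and gu167 (mean ± SD, n = 3 each). As a share of all counts without scaling, the members took 0.439%, 0.373% and 0.274% in the AF16 libraries, 0.229%, 0.282% and 0.281% in those of gu163, and 0.436%, 0.435% and 0.445% in those of gu167. On this unscaled measure AF16 replicate 3 lay within the gu163 range. Cytosolic ribosomal protein genes took 20.0% of the counts of that library and 12.2% to 16.5% of the others, and their part in the unscaled share was not tested.

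**Figure D1:**
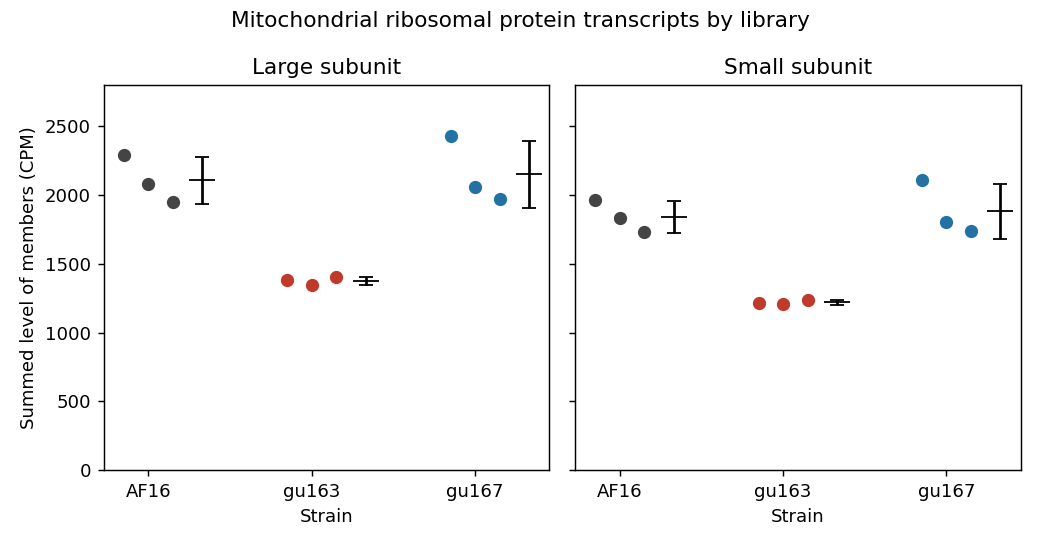
Summed level in CPM (vertical axis, from 0) of the 35 large subunit genes (left panel) and the 27 small subunit genes (right panel) in each library of AF16, gu163 and gu167; points are libraries, horizontal bars the mean and error bars the SD of 3. The gu163 libraries sit between 1344 and 1403 CPM for the large subunit and between 1207 and 1238 CPM for the small subunit, below the libraries of both other strains.

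Of the 62 members, 36 fell in gu163 against AF16 at an adjusted p under 0.05, against 2.94% of all genes tested, and 0 rose, against 6.36%. The 36 were 18 of 35 large subunit and 18 of 27 small subunit genes. Before adjustment, 54 members had a p under 0.05, all lower, where 10.6% of all genes were lower and 13% higher. All 62 fitted log2 fold changes were below 0, as were those of 51.2% of all genes. The gu163 and AF16 libraries did not overlap in 53 members, all lower in gu163, where 13% of all genes were lower in this way and 14.5% higher. DESeq2 called 42 members lower and 0 higher. Fitted on the AF16 and gu163 libraries alone, 22 members fell, and with libraries scaled by their total counts alone, a setting added after seeing the data, 3 fell.

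The median log2 fold change in gu163 was -0.63 for the large and -0.63 for the small subunit, which is a median change of -35.4% over the 62 members. Members ranged from -1.02 to -0.01 with an SD of 0.18 over members, and the median SE of a single member was 0.16. The median of all genes tested was -0.01. The 40 members with a bacterial counterpart had a median of -0.62, with 23 lower, and the 22 known only from mitochondria had a median of -0.64, with 13 lower. This sorting into bacterial and mitochondrial proteins, and the role groups used below, follow the mammalian and bacterial ribosome and were written down after the values were seen.

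**Figure D2:**
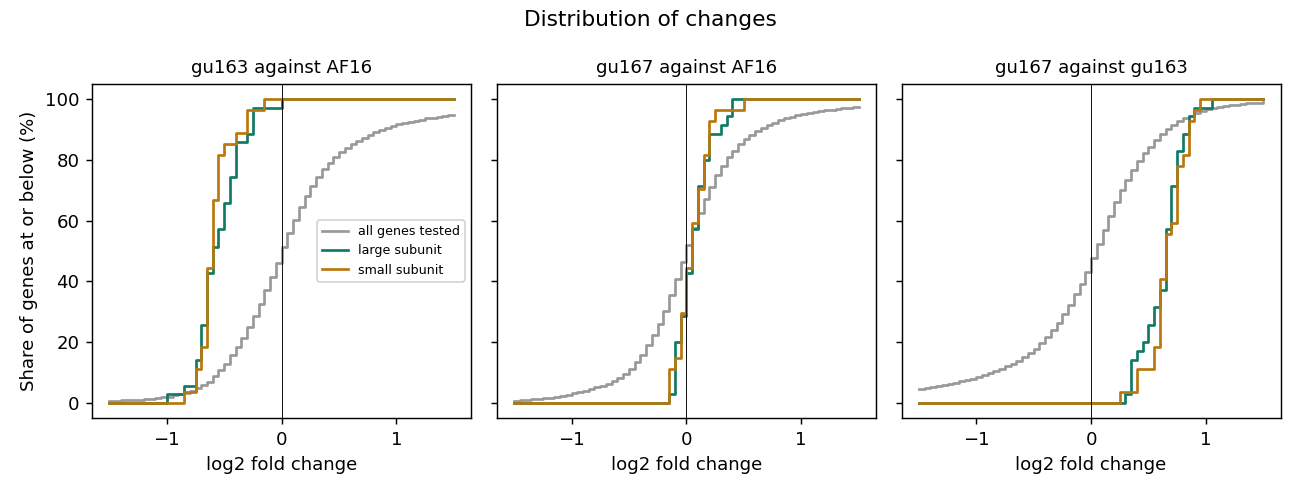
Share of genes (vertical axis, percent) whose log2 fold change is at or below the value on the horizontal axis, for the 35 large subunit genes, the 27 small subunit genes and all 12507 genes tested, in each of the 3 comparisons. Both subunit curves lie to the left of all genes in gu163 against AF16, with medians of -0.63, near all genes in gu167 against AF16, and to the right in gu167 against gu163, with medians of 0.63.

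Among large subunit genes, those of the exit tunnel and its rim were lower in gu163 in 5 of 7 cases. This stood beside 18 of 35 for the whole subunit and 2.94% of all genes. Their median log2 fold change was -0.70, beside -0.63 for the whole subunit. Cbr-mrpl-22 and Cbr-mrpl-4, whose bacterial counterparts line the tunnel, had the lowest adjusted p within this group together with Cbr-mrpl-45, which in mammals sits at the tunnel exit and holds the ribosome to the inner membrane. Cbr-mrpl-22 lay at 96.5, 80.8 and 91.5 CPM in the AF16 libraries, 45.2, 49.2 and 50.9 in those of gu163, and 94.2, 76.4 and 66.4 in those of gu167. It fell in gu163 by 0.89 (SE 0.15, adjusted p = 0.00629) on the log2 scale, with every gu163 library below every other. Cbr-mrpl-4 lay at 84.6, 87.2 and 84.7 CPM in the AF16 libraries, 54.7, 44.9 and 51.8 in those of gu163, and 84.9, 74.5 and 72.3 in those of gu167, and fell by 0.76 (SE 0.13, adjusted p = 0.00546). Cbr-mrpl-45 lay at 110.0, 113 and 102 CPM in the AF16 libraries, 66.4, 64.5 and 68.9 in those of gu163, and 118, 110.3 and 106 in those of gu167, and fell by 0.70 (SE 0.12, adjusted p = 0.00560). For both genes the gu163 libraries were the 3 lowest and AF16 overlapped gu167. Cbr-mrpl-17, at the tunnel exit in bacteria, fell by 0.71 (SE 0.13, adjusted p = 0.00873), and its calls and those of the other named tunnel genes held in each of the 9 fits that left out 1 library. Cbr-mrpl-24 fell by 0.56 (SE 0.15, adjusted p = 0.0368), a call lost without AF16 replicate 1 or 2, any gu163 library or gu167 replicate 2 (adjusted p 0.0660 to 0.136). The remaining exit genes, Cbr-mrpl-23 and Cbr-mrpl-47, had log2 fold changes of -0.64 ± 0.18 (adjusted p = 0.0531) and -0.46 ± 0.16 (adjusted p = 0.105).

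The largest fall of any member was that of Cbr-mrpl-9, the counterpart of bacterial L9 at the base of the L1 stalk. Its level was 106, 89.1 and 93.4 CPM in the AF16 libraries, 44.9, 51.2 and 45.8 in those of gu163, and 105, 80.3 and 75.96 in those of gu167. The gu163 libraries lay near 47.3 CPM, the mean of that strain, with no overlap with either other strain, and the gene fell by 1.02 (SE 0.16, adjusted p = 0.00296). Cbr-mrpl-14, at the face that meets the small subunit, lay at 66.2, 66.4 and 66.2 CPM in the AF16 libraries, 44.4, 39.8 and 36.2 in those of gu163, and 65.2, 64.7 and 60.99 in those of gu167. The AF16 libraries lay between 66.2 and 66.4 CPM, all gu163 libraries were lower, and the gene fell by 0.72 (SE 0.12, adjusted p = 0.00530). Both calls held without any 1 library. Cbr-mrpl-19, at the same face, fell by 0.51 (SE 0.14, adjusted p = 0.0467), and its call was lost without any 1 of the 9 libraries except AF16 replicate 3 (adjusted p 0.0551 to 0.153).

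Near the peptidyl transferase centre, where the peptide bond is made, Cbr-mrpl-2 and Cbr-mrpl-16 differed in the spread of their libraries. Cbr-mrpl-2 lay at 68.3, 65.7 and 70.7 CPM in the AF16 libraries, 45.1, 42.8 and 38.8 in those of gu163, and 80.6, 57.3 and 56.97 in those of gu167, and fell in gu163 by 0.69 (SE 0.16, adjusted p = 0.0221), a call lost without AF16 replicate 2 or any 1 gu163 library (adjusted p 0.0507 to 0.0996). Cbr-mrpl-16 lay at 93.4, 87.2 and 63.9 CPM in the AF16 libraries, 56.9, 58.4 and 68.5 in those of gu163, and 109, 109 and 101 in those of gu167. AF16 replicate 3 was below the highest gu163 library, and the log2 fold change of -0.41 ± 0.16 (adjusted p = 0.150) did not pass the test. At the base of the stalk that recruits elongation factors, Cbr-mrpl-10 fell by 0.66 (SE 0.17, adjusted p = 0.0360), and this call was lost without any 1 AF16 or gu163 library or gu167 replicate 2 (adjusted p 0.0550 to 0.125). Its level was 79.7, 65.7 and 72.1 CPM in the AF16 libraries, 48.6, 44.5 and 44.9 in those of gu163, and 88.1, 69.5 and 56.7 in those of gu167, with gu163 lowest. Cbr-mrpl-11, its neighbour in the ribosome, lay at 68.7, 67.8 and 44.9 CPM in the AF16 libraries, 32.2, 36.9 and 46.9 in those of gu163, and 77.1, 72.6 and 86.4 in those of gu167. One AF16 library, replicate 3, lay inside the gu163 range, and the log2 fold change was -0.65 ± 0.20 (adjusted p = 0.0717). Cbr-mrpl-12, which forms the stalk itself, was not analysed here.

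Of the 12 mitochondria-specific large subunit genes outside the tunnel group, 7 fell in gu163, against 2.94% of all genes. The median log2 fold change of the 12 was -0.66. Cbr-mrpl-38, part of the central protuberance in mammals, lay at 105, 104 and 101 CPM in the AF16 libraries, 62.5, 64.4 and 68.3 in those of gu163, and 125, 109.7 and 106 in those of gu167. The AF16 values spanned 101 to 105 CPM and the gu163 values 62.5 to 68.3 CPM, and the gene fell by 0.67 (SE 0.12, adjusted p = 0.00827). Cbr-mrpl-37 fell by 0.79 (SE 0.14, adjusted p = 0.00723) and Cbr-mrpl-51 by 0.79 (SE 0.15, adjusted p = 0.00883), and the calls of these 3 genes held in each fit without 1 library. Cbr-mrpl-39, Cbr-mrpl-40, Cbr-mrpl-53 and Cbr-mrpl-54 also fell, by 0.63 to 0.66, and each of these calls was lost without 1 or more libraries. Cbr-mrpl-40 did not pass when AF16 replicate 1 or gu163 replicate 2 or 3 was left out (adjusted p 0.0566 to 0.0894). The call of Cbr-mrpl-53 needed AF16 replicates 1 and 2, gu163 replicates 2 and 3 and gu167 replicate 2 (0.0527 to 0.120). Cbr-mrpl-39 was lost without any AF16 or gu163 library or gu167 replicate 2 (0.0792 to 0.155), and Cbr-mrpl-54 without any 1 library except gu163 replicate 1 (0.0506 to 0.116). The 9 remaining large subunit genes with a bacterial counterpart and no role group of their own had a median of -0.49, with 2 called lower. These were Cbr-mrpl-9 and Cbr-mrpl-35, the latter by 0.53 (SE 0.14, adjusted p = 0.0424). The call of Cbr-mrpl-35 was lost without AF16 replicate 1 or 2, any gu163 library, or gu167 replicate 2 or 3 (0.0572 to 0.136). The 1 gene placed at the central protuberance by its bacterial counterpart had a log2 fold change of -0.32 and was not called.

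**Figure D3:**
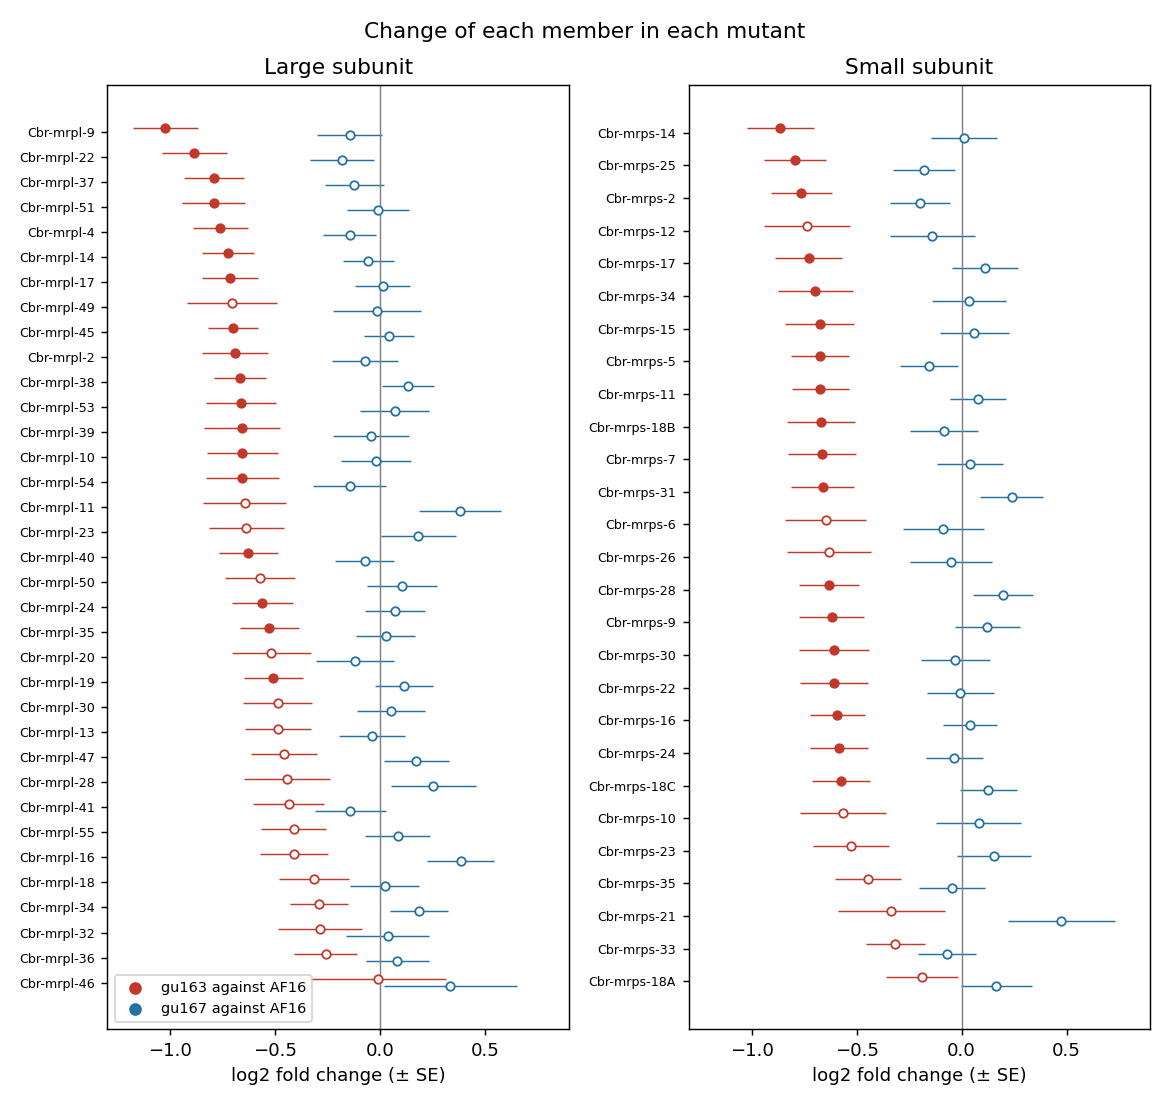
Fitted log2 fold change (horizontal axis) of each large subunit gene (left panel) and small subunit gene (right panel) in gu163 and in gu167, each against AF16, with error bars of ± 1 SE; filled points have an adjusted p under 0.05 and genes are ordered by their change in gu163. The gu163 points run from -1.02 (Cbr-mrpl-9) to -0.01 (Cbr-mrpl-46), with 36 filled, and the gu167 points from -0.20 (Cbr-mrps-2) to 0.48 (Cbr-mrps-21), with 0 filled.

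In the small subunit, the largest fall was that of Cbr-mrps-14, a protein of the head of the subunit. It lay at 107, 109 and 108 CPM in the AF16 libraries, 69.8, 50.9 and 57.7 in those of gu163, and 128, 97.4 and 102 in those of gu167. All gu163 libraries were below all AF16 and gu167 libraries, and the gene fell by 0.86 (SE 0.16, adjusted p = 0.00822). Of the 5 head genes, Cbr-mrps-7, Cbr-mrps-9 and Cbr-mrps-24 also fell, by 0.66, 0.62 and 0.58. Cbr-mrps-7 did not pass when AF16 replicate 2 or 3, gu163 replicate 2 or 3 or gu167 replicate 2 was left out (adjusted p 0.0549 to 0.117). The calls of Cbr-mrps-9 and Cbr-mrps-24 were lost without AF16 replicate 1 or 2, any gu163 library or gu167 replicate 2 (0.0507 to 0.106). The fifth, Cbr-mrps-10, had a log2 fold change of -0.56 ± 0.21 (adjusted p = 0.126).

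Around the decoding centre, Cbr-mrps-5 and Cbr-mrps-12 had similar fold changes and different errors. Cbr-mrps-5, the gene whose lowering lengthens life in C. elegans, lay at 139, 127 and 136 CPM in the AF16 libraries, 88.1, 78.9 and 84.9 in those of gu163, and 137, 118 and 106 in those of gu167. Its gu163 libraries were the 3 lowest, and it fell by 0.67 (SE 0.14, adjusted p = 0.0131), which did not pass without gu163 replicate 2 (adjusted p = 0.0543) or 3 (0.0582). Cbr-mrps-12, a protein of decoding accuracy in bacteria, lay at 28.3, 29.2 and 41.4 CPM in the AF16 libraries, 23.8, 16.5 and 19.2 in those of gu163, and 34.9, 26.8 and 28.03 in those of gu167. Its gu163 libraries were also the 3 lowest, AF16 replicate 3 stood above all other libraries, and its log2 fold change of -0.74 ± 0.21 (adjusted p = 0.0509) did not pass the test. Of the 8 genes of the body and platform, 6 fell, against 2.94% of all genes. Cbr-mrps-2 lay at 56.7, 59.2 and 63.8 CPM in the AF16 libraries, 36.2, 31.7 and 38.02 in those of gu163, and 58.3, 54.4 and 43.9 in those of gu167, and fell by 0.76 (SE 0.15, adjusted p = 0.00955) with no overlap between gu163 and the others. Cbr-mrps-11, Cbr-mrps-15, Cbr-mrps-16, Cbr-mrps-17 and Cbr-mrps-28 fell by 0.59 to 0.73. Their calls were lost in fits without gu163 replicate 2 or 3 for Cbr-mrps-11, any gu163 library for Cbr-mrps-16, AF16 replicate 1 or any gu163 library for Cbr-mrps-17, these or gu167 replicate 2 for Cbr-mrps-15, and AF16 replicate 2 or gu163 replicate 1 for Cbr-mrps-28 (0.0505 to 0.0995).

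The S18 family has 3 genes, one of which encodes a large subunit protein in mammals despite its name. That gene, Cbr-mrps-18A, lay at 156, 145 and 103 CPM in the AF16 libraries, 109, 132 and 113 in those of gu163, and 153, 144 and 156 in those of gu167. AF16 replicate 3 was the lowest of all libraries, AF16 overlapped gu163, and the log2 fold change was -0.19 ± 0.17 (adjusted p = 0.551). Cbr-mrps-18B and Cbr-mrps-18C fell by 0.67 and 0.57. Cbr-mrps-18B was lost without AF16 replicate 1 or 3, any gu163 library or gu167 replicate 2 (adjusted p 0.0524 to 0.113), and Cbr-mrps-18C without AF16 replicate 1 or 2, any gu163 library or gu167 replicate 2 (0.0550 to 0.0970). The S18 genes derive from 1 bacterial protein, and reads were not checked for sharing between them.

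Of the 8 small subunit genes known only from mitochondria, Cbr-mrps-22, Cbr-mrps-25, Cbr-mrps-31 and Cbr-mrps-34 fell in gu163. Cbr-mrps-25 lay at 79.3, 84.02 and 79.6 CPM in the AF16 libraries, 52.5, 40.4 and 47.4 in those of gu163, and 81.1, 72.1 and 61.1 in those of gu167. No AF16 library was below 79.3 CPM and no gu163 library above 52.5 CPM, and the gene fell by 0.79 (SE 0.15, adjusted p = 0.00900) in a call that held without any 1 library. Cbr-mrps-31 fell by 0.66 (SE 0.15, adjusted p = 0.0216), lost without AF16 replicate 1 or 2 or gu163 replicate 1 or 2 (0.0617 to 0.0768). Cbr-mrps-34 fell by 0.70 (SE 0.18, adjusted p = 0.0353), lost without any 1 AF16 library, gu163 replicate 1 or 3 or gu167 replicate 2 (0.0619 to 0.126). Cbr-mrps-22 fell by 0.61 (SE 0.16, adjusted p = 0.0427) and Cbr-mrps-30, a large subunit protein in mammals, by 0.61 (SE 0.17, adjusted p = 0.0462). These 2 calls were lost without AF16 replicate 1 or 2, any gu163 library, or gu167 replicate 2 or 3 (0.0589 to 0.149). Cbr-mrps-33 had the smallest change of the 8, at -0.31 ± 0.14 (adjusted p = 0.201).

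The AF16 and gu163 libraries overlapped in 9 members. In 8 of these AF16 replicate 3 alone lay at or below the highest gu163 library, namely Cbr-mrpl-11, Cbr-mrpl-16, Cbr-mrpl-28, Cbr-mrpl-32, Cbr-mrpl-36, Cbr-mrpl-49, Cbr-mrps-18A and Cbr-mrps-21. Cbr-mrps-21 was 47.3, 48.1 and 25.8 CPM in the AF16 libraries, 25.3, 34.05 and 36.9 in those of gu163, and 44.9, 56.2 and 67.9 in those of gu167. Its AF16 replicate 3 lay 0.88 below the other AF16 libraries on the log2 scale, close to gu163 replicate 1, and its log2 fold change in gu163 was -0.33 ± 0.26 (adjusted p = 0.470). Cbr-mrpl-36 lay at 22.97, 24.2 and 19.8 CPM in the AF16 libraries, 20.3, 18.6 and 17.2 in those of gu163, and 25.4, 21.5 and 24.1 in those of gu167, a log2 fold change of -0.26 ± 0.15 (adjusted p = 0.325). Cbr-mrpl-32 had -0.29 ± 0.20 (adjusted p = 0.426). The ninth, Cbr-mrpl-46, was the member with the fewest reads, 21 to 52 counts in a library, and lay at 2.92, 2.61 and 3.27 CPM in the AF16 libraries, 3.91, 3.23 and 1.69 in those of gu163, and 3.51, 3.28 and 4.32 in those of gu167. All AF16 libraries were within the gu163 range, and the log2 fold change of -0.01 ± 0.32 (adjusted p = 0.987) left the direction unresolved at this depth.

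**Figure D4:**
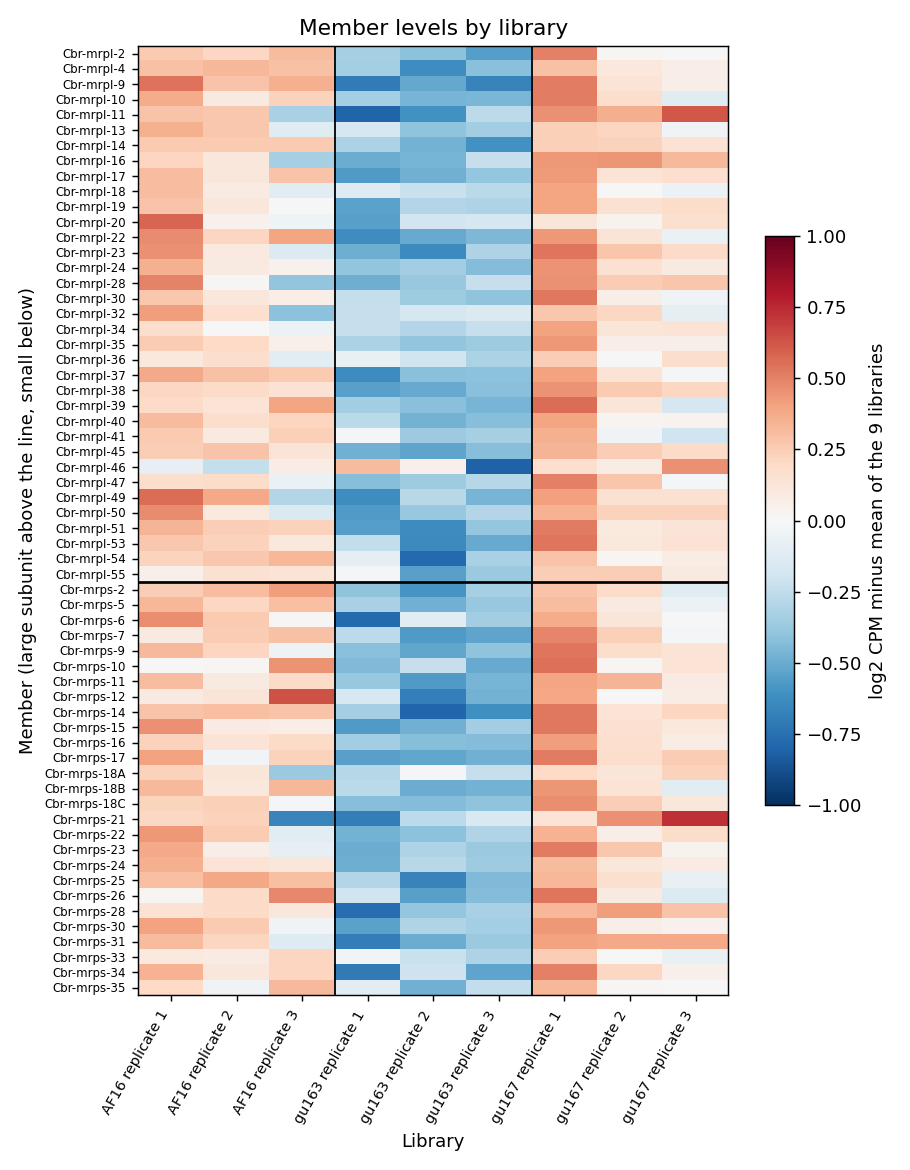
log2 CPM of each member (rows, large subunit above the heavy line, small subunit below) minus its own mean over the 9 libraries (columns, grouped by strain), from -1 (blue) to 1 (red). The gu163 columns lie below the mean in every row except Cbr-mrpl-46, and AF16 replicate 3 is blue for Cbr-mrps-21, Cbr-mrpl-11 and Cbr-mrpl-32 among others.

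The lowest of the 9 libraries was a gu163 library in 60 of 62 members, replicate 1 in 24, replicate 2 in 25 and replicate 3 in 11. In the remaining members, Cbr-mrpl-32 and Cbr-mrps-18A, it was AF16 replicate 3. The highest library was gu167 replicate 1 in 37 members and AF16 replicate 1 in 13. The coefficient of variation between libraries had a median over members of 9.59% in AF16, 8.95% in gu163 and 13.3% in gu167.

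In gu167 against AF16, 0 members rose and 0 fell with edgeR, where 1.97% of all genes were called higher and 0.128% lower. DESeq2 also called 0 either way, and at an unadjusted p under 0.05 the count was 1 higher and 0 lower, against 8.12% and 6.87% of all genes. The 1 gene was Cbr-mrpl-16, with a log2 fold change of 0.38 ± 0.16 (unadjusted p = 0.0376, adjusted p = 0.299). The medians were 0.03 for the large and 0.03 for the small subunit, beside -0.02 for all genes. Of the 62 fold changes, 27 were below 0, against 52% of all genes, with a range from -0.20 to 0.48. The libraries of the strains did not overlap in 6 members that were higher in gu167, against 11.9% of all genes, and in 1 that was lower, against 7.60%. Cbr-mrps-21 was the highest, at 0.48 ± 0.25 (adjusted p = 0.398), followed by Cbr-mrpl-16 and by Cbr-mrpl-11, at 0.38 ± 0.20 (adjusted p = 0.388). The highest in the small subunit after Cbr-mrps-21 were Cbr-mrps-31, at 0.24 ± 0.15 (adjusted p = 0.458), and Cbr-mrps-28, at 0.20 ± 0.14 (adjusted p = 0.515), and the third in the large subunit was Cbr-mrpl-46, at 0.33 ± 0.32 (adjusted p = 0.622). The lowest were Cbr-mrps-2, at -0.20 ± 0.14 (adjusted p = 0.521), Cbr-mrpl-22, at -0.18 ± 0.15 (adjusted p = 0.581), and Cbr-mrps-25, at -0.18 ± 0.15 (adjusted p = 0.570). In Cbr-mrps-21, Cbr-mrpl-16 and Cbr-mrpl-11, the lowest AF16 library was replicate 3.

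The mutants were then compared directly, a test that shares the gu163 libraries with the comparison above. Against gu163, 43 members were higher in gu167 and 0 lower, where 5.13% of all genes were higher and 8.33% lower. The 43 were 24 large and 19 small subunit genes. Libraries did not overlap in 59 members, all higher in gu167, 33 of the large and 26 of the small subunit, where 18.5% of all genes were higher in this way and 20.2% lower. The medians were 0.63 for the large and 0.63 for the small subunit, beside 0.02 for all genes, with a range from 0.25 to 1.02. The largest difference was that of Cbr-mrpl-11, at 1.02 ± 0.20 (adjusted p = 0.0102), with every gu167 library above every gu163 library. Cbr-mrps-31 followed at 0.90 ± 0.15 (adjusted p = 0.00668). It lay at 104, 96.8 and 76.4 CPM in the AF16 libraries, 51.7, 59.1 and 64.5 in those of gu163, and 110.2, 109 and 109 in those of gu167, so that the gu167 libraries differed by less than the AF16 libraries did. Cbr-mrpl-9 and Cbr-mrps-14 differed by 0.88 ± 0.15 (adjusted p = 0.00799) and 0.88 ± 0.16 (adjusted p = 0.00855). The smallest adjusted p belonged to Cbr-mrpl-38, at 0.80 ± 0.12 (adjusted p = 0.00500), and Cbr-mrpl-45, at 0.74 ± 0.12 (adjusted p = 0.00577). These 6 calls held in each fit without 1 library.

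Cbr-mrpl-11, Cbr-mrpl-16, Cbr-mrpl-23, Cbr-mrpl-28, Cbr-mrpl-34, Cbr-mrpl-47, Cbr-mrpl-50 and Cbr-mrps-23 passed the test between the mutants and not the test of gu163 against AF16. For Cbr-mrpl-54 it was the reverse, with -0.66 ± 0.18 (adjusted p = 0.0427) in gu163 against AF16 and 0.51 ± 0.17 (adjusted p = 0.0816) between the mutants. A further 18 members passed neither. Whether the 2 fold changes of a gene differ in size was not tested. The calls between the mutants of Cbr-mrpl-28 and Cbr-mrpl-34, at 0.70 ± 0.20 (adjusted p = 0.0484) and 0.48 ± 0.14 (adjusted p = 0.0474), were lost without any 1 gu163 or gu167 library or AF16 replicate 2 (adjusted p 0.0663 to 0.157). Cbr-mrpl-16 was lost only without gu163 replicate 1 (0.0536). Cbr-mrpl-50 was lost without any 1 gu163 or gu167 library (0.0588 to 0.101). Cbr-mrpl-47 and Cbr-mrps-23 were lost without any 1 gu163 library or gu167 replicate 1 or 2 (0.0629 to 0.117). Cbr-mrpl-23 was lost without gu163 replicate 1 or 2 or gu167 replicate 1 (0.0533 to 0.0601).

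The subunits were set against each other within libraries, where scaling between libraries cancels. The median log2 deviation of the large subunit genes minus that of the small subunit genes averaged -0.049 ± 0.063 in AF16, 0.041 ± 0.042 in gu163 and 0.003 ± 0.019 in gu167 (mean ± SD, n = 3 each). Single libraries ran from -0.122 in AF16 replicate 3 to 0.070 in gu163 replicate 1. The ratio of the summed levels, large over small, was between 1.11 and 1.17 in all 9 libraries. In the fits, the large subunit median minus the small subunit median was 0.003 in gu163, -0.010 in gu167 and -0.002 between the mutants. The share of members called lower in gu163 was 51.4% for the large and 66.7% for the small subunit, and the share with no overlap was 80.0% and 92.6%. Without gu163 replicate 2 or 3, the calls were 9 of 35 large and 5 of 27 small subunit genes. The larger share was then that of the large subunit. No test of a difference between the subunits was made.

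Leaving out 1 library changed how many members passed the test far more than the size of the fold changes. The 36 lower members in gu163 became 18 or 19 when AF16 replicate 1 or 2 was left out, 18, 14 or 14 for gu163 replicate 1, 2 or 3, and 20 for gu167 replicate 2. They were 38 without AF16 replicate 3, of which 30 were among the 36. The calls of 12 members held in all 9 fits, those of Cbr-mrpl-4, Cbr-mrpl-9, Cbr-mrpl-14, Cbr-mrpl-17, Cbr-mrpl-22, Cbr-mrpl-37, Cbr-mrpl-38, Cbr-mrpl-45, Cbr-mrpl-51, Cbr-mrps-2, Cbr-mrps-14 and Cbr-mrps-25. By subunit, the 18 and 18 became 10 and 8 with AF16 replicate 1 left out, 10 and 9 with AF16 replicate 2, 12 and 6 with gu163 replicate 1, 9 and 5 with gu163 replicate 2 or 3, and 11 and 9 with gu167 replicate 2. The 43 higher members between the mutants became 19, 24 and 18 without gu163 replicate 1, 2 and 3, and 17 and 22 without gu167 replicate 1 and 2. Calls of 13 of these 43 held in all 9 fits. The median log2 fold change in gu163 stayed between -0.64 and -0.54 over these fits.

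Of the members, Cbr-mrps-2 and Cbr-mrpl-4 are direct neighbours in the annotation of assembly CB4. Both fell by 0.76 in gu163. Cbr-mrpl-17, Cbr-mrps-12 and Cbr-mrps-23 overlap another annotated gene, and with no strand setting given, reads of the partners cannot be told apart.

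The genes around the mitochondrial ribosome were described from lists built on C. elegans gene names. Of 13 mitochondrial translation factors and tRNA synthetases, 4 fell in gu163 and 0 rose, against 2.94% and 6.36% of all genes. In gu167, 0 were called either way, where 0.128% of all genes were lower and 1.97% higher. The median log2 fold changes of the list were -0.54 in gu163 and 0.12 in gu167. Cbr-tsfm-1, the exchange factor that recharges the elongation factor Tu, lay at 141, 122 and 87.6 CPM in the AF16 libraries, 53.1, 47.7 and 51.9 in those of gu163, and 141, 102 and 116.9 in those of gu167. Every gu163 library was below every other, and the gene fell by 1.20 (SE 0.19, adjusted p = 0.00403). This fitted fall was larger than that of any member of the ribosome itself, and the difference was not tested. Cbr-tufm-1, the elongation factor Tu, fell by 0.83 (SE 0.18, adjusted p = 0.0166), which did not pass without gu163 replicate 2 (0.0667) or 3 (0.0751). The tRNA synthetase genes Cbr-lars-2 and Cbr-ears-2 fell by 0.70 and 0.77, calls lost without AF16 replicate 1 or 2 or gu163 replicate 1 or 3, and for Cbr-ears-2 also without gu163 replicate 2 or gu167 replicate 2 or 3 (0.0526 to 0.108). Leaving out AF16 replicate 1, AF16 replicate 2 or gu163 replicate 1 turned the count of 4 into 2, and leaving out gu163 replicate 3 into 1. Cbr-dap-3, a further small subunit protein whose symbol the rule did not take, had -0.54 ± 0.18 (adjusted p = 0.105) in gu163 against AF16, and 0.79 ± 0.18 (adjusted p = 0.0206) between the mutants, a call lost without gu163 replicate 1 or any 1 gu167 library (0.0567 to 0.0831).

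Genes of mitochondrial import and chaperones were counted beside the 2.94% of all genes that fell and the 6.36% that rose in gu163. Of 9 import genes 5 fell and 0 rose, among them the outer membrane receptor Cbr-tomm-20, by 0.77 (SE 0.14, adjusted p = 0.00862), and the channel Cbr-tomm-40, by 0.82 (SE 0.18, adjusted p = 0.0195), the latter lost without any 1 gu163 library (0.0601 to 0.0814). The third by adjusted p was Cbr-mppa-1, a subunit of the peptidase that removes targeting sequences, which fell by 0.65 (SE 0.15, adjusted p = 0.0221) and was lost without AF16 replicate 1 or 2 or any gu163 library (0.0581 to 0.0896). The count of 5 became 2 without AF16 replicate 1 or 2, 1 without any 1 gu163 library, and 3 without gu167 replicate 2. Of 13 chaperones, proteases and stress response genes 6 fell and 0 rose, and 11 had a log2 fold change below 0. The matrix chaperone Cbr-hsp-6 lay at 1315, 1139 and 1357 CPM in the AF16 libraries, 531, 480.0 and 574 in those of gu163, and 1525, 871 and 975 in those of gu167, and fell by 1.27 (SE 0.24, adjusted p = 0.0103). Cbr-cchl-1, which attaches heme to cytochrome c, fell by 1.05 (SE 0.16, adjusted p = 0.00319), and Cbr-phb-2, a prohibitin of the inner membrane, by 0.96 (SE 0.19, adjusted p = 0.0117). Both transcription factors of the C. elegans mitochondrial stress response had values that did not pass the test, -0.34 ± 0.19 (adjusted p = 0.314) for Cbr-atfs-1 and -0.26 ± 0.32 (adjusted p = 0.675) for Cbr-dve-1. Of 3 genes of mitochondrial DNA maintenance and expression, Cbr-atad-3 and Cbr-mtss-1 fell, by 1.02 (SE 0.20, adjusted p = 0.0113) and 0.95 (SE 0.16, adjusted p = 0.00595). The third was not called, and its log2 fold change was not below 0. In gu167 against AF16, 0 genes of these 3 lists were called, where 1.97% of all genes were higher and 0.128% lower. Their medians in gu167 were -0.09 (import), -0.15 (chaperones) and -0.15 (mitochondrial DNA).

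Few genes of the cytosolic ribosome and none of the tested nuclear respiratory chain genes passed the test between the mutants. The counts were 1 higher and 1 lower of 76, and 0 of 32, where 5.13% of all genes were higher and 8.33% lower. The 1 higher cytosolic gene was not called without gu163 replicate 1 or 3 or gu167 replicate 1 or 2. Of 76 genes listed by symbol as cytosolic ribosomal proteins, 1 fell (Cbr-rpl-24.2) and 1 rose (Cbr-rpl-11.1) in gu163 and 0 were called in gu167. The shares of all genes were 2.94% lower and 6.36% higher in gu163, and 0.128% lower and 1.97% higher in gu167. Medians of the 76 were -0.55 and -0.52, and 75 of them had a log2 fold change below 0 in each mutant. The call of Cbr-rpl-11.1 was lost without any 1 AF16 or gu163 library or gu167 replicate 2 (0.0662 to 0.128), and that of Cbr-rpl-24.2 without AF16 replicate 2, any gu163 library or gu167 replicate 2 (0.0527 to 0.0912). Their summed level was 142070 to 268498 CPM over the AF16 libraries, 110332 to 161266 over those of gu163 and 108407 to 166568 over those of gu167, so that the strains overlapped. Of 32 tested nuclear genes of the respiratory chain and ATP synthase, 0 fell and 2 rose in each mutant, beside the same shares of all genes. Medians were -0.44 in gu163 and -0.31 in gu167, and 28 and 27 of the 32 were below 0. Without AF16 replicate 2, 1 fell in each mutant, and DESeq2 called 2 lower in gu163 and 1 in gu167. The 2 that rose were Cbr-nduf-2.2, by 1.72 and 1.36, and Cbr-sdha-2, by 1.13 and 0.94. The call of Cbr-sdha-2 in gu167 was lost without any 1 library except AF16 replicate 3 and gu163 replicate 1 (0.0648 to 0.122).

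**Figure D5:**
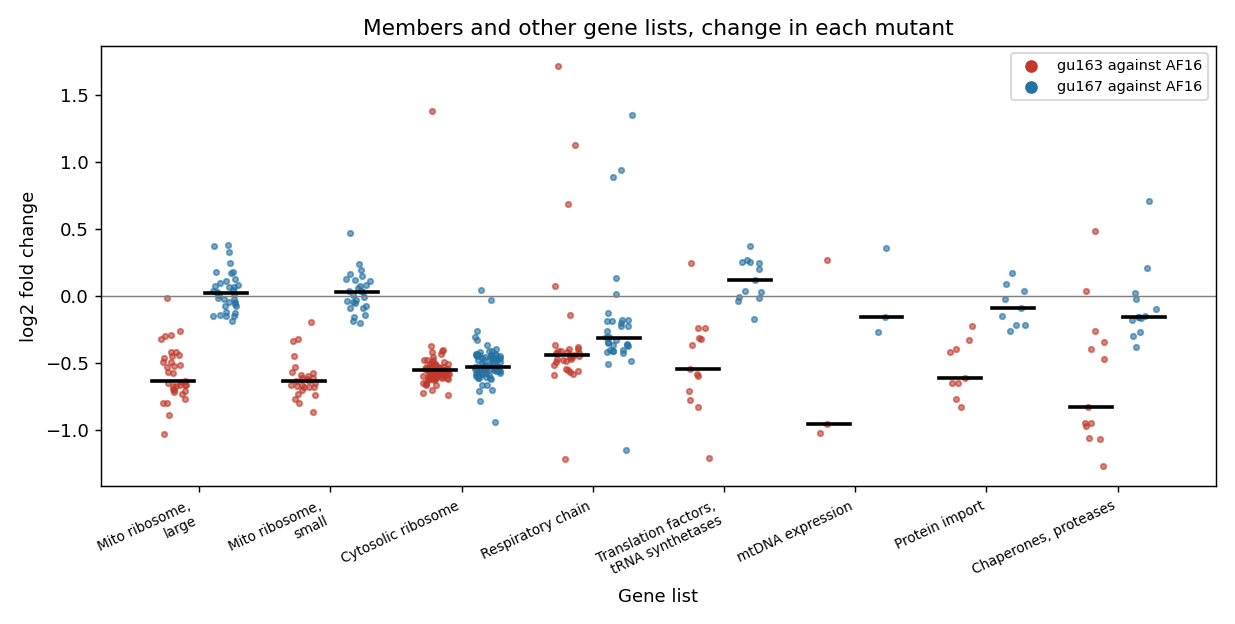
Fitted log2 fold change (vertical axis) of the members by subunit and of 6 other gene lists (horizontal axis) in gu163 and in gu167, each against AF16; points are genes and black bars the median of a list. The medians of both ribosomal subunits lie at -0.63 in gu163 and 0.03 in gu167, and those of the cytosolic ribosome at -0.55 and -0.52.

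Markers of tissues were read beside these results. Of 15 germline markers tested, 10 were higher in gu163 and 8 in gu167 against AF16, where 6.36% and 1.97% of all genes were higher. These counts were 7 to 9 and 6 to 8 in fits without 1 library. Summed over these markers, libraries ran from 218 to 389 CPM in AF16, 322 to 357 in gu163 and 306 to 349 in gu167. No muscle (7 tested), intestine (6) or neuron (7) marker was called with all libraries. Without gu163 replicate 2, 1 intestine marker was lower in gu163 than in AF16 and 1 higher in gu167 than in gu163, and without AF16 replicate 3, 1 neuron marker was lower in gu167 than in gu163. Of 6 epidermis markers 0 were called against AF16, though DESeq2 called 3 lower in gu167 than in AF16. Between the mutants 3 were lower in gu167, Cbr-dpy-13, Cbr-rol-6 and Cbr-sqt-3, where 8.33% of all genes were lower. This count was 2 to 4 in fits without 1 library. Sums of the 6 ran from 2763 to 4746 CPM in AF16, 4041 to 12331 in gu163 and 825 to 1782 in gu167. Of 3 yolk genes tested 0 were called, with sums of 46.8 to 65.3 CPM over the AF16 libraries, 20.4 to 34.05 over those of gu163 and 12.5 to 308 over those of gu167, where replicate 3 was the highest and replicate 2 the lowest of all 9 libraries. Their median log2 fold change was 3.64 in gu167 against AF16 and 4.15 in gu167 against gu163, with none below 0. In gu167 against AF16, 2 of the 3 were higher at an unadjusted p under 0.05, against 8.12% of all genes. Without gu167 replicate 2, 4 of the 5 yolk genes in the table were called higher in gu167 than in gu163. The germline marker Cbr-syp-1 had 0 counts in AF16 replicate 3. The part of tissue composition and of developmental stage in the result was not tested.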

How the data were processed

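Whole-animal RNA of L3 larvae was sequenced in 9 libraries, 3 per strain. The authors deposited raw read counts per gene, with no normalization, and the series table matches the 9 library tables. Per the submitters' processing notes, Trim Galore, FastQC, STAR and DESeq were used; the versions, genome build, counting program and strand option were not given in the sources used here. Symbols came from a RefSeq gene table of assembly CB4 by locus tag, which matched 22727 of 22922 identifiers and left 195 unmatched. It was used for names, neighbours and overlaps only. It holds no sequence, so none is printed.

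Counts were fitted with edgeR 4.0.16 in R 4.3.3 (TMM, filterByExpr at a minimum of 10 counts, quasi-likelihood F test with robust fits), all 9 libraries and 12507 genes in 1 fit, with Benjamini-Hochberg adjustment over all genes and adjusted p under 0.05 called. SE was taken from the F statistic. Log2 deviations used a prior count of 2. DESeq2 1.42.0 and limma 3.58.1 (voom), other scalings, filters and sample sets were alternatives. The steps were tested on simulated data. The labels print an FDR of 0.05%, read here as 0.05.

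The members, gene lists and named genes were chosen with earlier results of these data known, and the role groups after the values were seen. The named genes were all members called in any comparison, a choice of members with the largest changes, a few ribosomal proteins of known role, and a choice from the other lists. Germline markers were not named by adjusted p.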

Additional observations from a re-analysis of the deposited data

Results flagged for a closer look

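The mutants differed from each other in the genes named here, by the direct edgeR test of gu167 against gu163. Groups of 3 libraries are too small for a test of single outlying libraries. Among all genes tested, 5.13% were higher in gu167. Of the large subunit genes 24 of 35, and of the small subunit genes 19 of 27, were higher in gu167. These counts were 10 and 9 without gu163 replicate 1, 13 and 11 without gu163 replicate 2, 10 and 8 without gu163 replicate 3, 9 and 8 without gu167 replicate 1, and 13 and 9 without gu167 replicate 2. The 5 members with the smallest adjusted p were Cbr-mrpl-38 (log2 fold change 0.80, adjusted p = 0.00500), Cbr-mrpl-45 (0.74, 0.00577), Cbr-mrps-31 (0.90, 0.00668), Cbr-mrps-28 (0.83, 0.00742) and Cbr-mrpl-9 (0.88, 0.00799).

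Genes that work beside the mitochondrial ribosome were also higher in gu167 than in gu163. They were 6 of 13 translation factors and tRNA synthetases and 2 of 3 genes of mitochondrial DNA expression. They also included 4 of 9 import genes and 6 of 13 chaperones, proteases and stress response genes. The share of all genes tested was 5.13%. The 6 translation genes became 1 without gu163 replicate 1 or gu167 replicate 1, and 2 without gu163 replicate 3 or gu167 replicate 2 or 3. The 2 genes of mitochondrial DNA expression became 0 without any 1 gu163 library or gu167 replicate 1, and 1 without gu167 replicate 2. The 4 import genes became 1 without gu163 replicate 1 or gu167 replicate 2, 2 without gu163 replicate 2 or gu167 replicate 1, and 0 without gu163 replicate 3. The 6 chaperone genes became 1 without gu163 replicate 1, 2 without gu163 replicate 2 or 3, and 3 without gu167 replicate 1.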

How the results depend on the processing

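The direction of every member median in gu163 against AF16, and between the mutants, was the same under all alternatives run. With DESeq2, voom, RLE or upper-quartile scaling, or no filter on low counts, the 36 members lower in gu163 were 32 to 42 and the 43 higher in gu167 than in gu163 were 36 to 48. With only the compared strains in the fit, 22 were lower in gu163. At an adjusted p under 0.0005, the other reading of the submitters' FDR, 0 were called in gu163 and 0 between the mutants. In the fits without 1 library the counts ranged from 14 to 38 and from 17 to 50. The medians ranged in gu163 from -0.63 to -0.49 (large), -0.64 to -0.57 (small) and -0.64 to -0.54 (all). In gu167 against AF16 the small subunit median ranged from -0.10 to 0.11. Between the mutants the medians ranged from 0.50 to 0.70 (large) and 0.50 to 0.71 (all). With a replicate block 22 members were lower in gu163 and 30 higher between the mutants. The numbers give no sign of pairing, as same-numbered libraries correlated from -0.29 to 0.25 in their deviations. Scaling by total counts only, chosen after seeing the data, left 3 members lower in gu163, with medians of -0.48 (large), -0.48 (small) and -0.48 (all). In gu167 it gave 0.27 (large), 0.28 (small) and 0.27 (all), with 0 called. It moved the median of all genes to 0.15 in gu163 and 0.25 in gu167. Cbr-mrpl-46, with 21 to 52 counts, is the member most limited by depth.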
